A study of Mus musculus with 4 samples.

Results

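Summits of TOP2B cleavage complexes near the genes of microRNAs (miRNAs) and small nucleolar RNAs (snoRNAs) were described in cultured mouse cortical neurons. An autosomal entry of the peak list belonged here when its summit lay in, or within 5 kb of, a miRNA or snoRNA gene of the RefSeq annotation. By that rule 398 of 35315 autosomal entries were members, out of 35539 entries in the whole list. Of these, 239 lay near a miRNA gene, 165 near a snoRNA gene and 6 near both. The 190 entries on chromosome X and 34 on scaffolds were not used.

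The neurons came from wild-type Swiss-Webster embryos at embryonic day 16. All cultures, ChIP and input alike, received etoposide at 50 µM for 30 min, which holds the complex of TOP2B and cut DNA in place, so the data hold no untreated condition. Chromatin immunoprecipitation (ChIP) with an antibody to TOP2B gave 2 libraries, and input DNA gave 2. Only 1 peak list, pooled over libraries, was used, so no value has a spread between replicates, and sequencing depth is unknown. Intervals are exact 95% intervals, cover counting error only, and take summits as independent, which neighbouring summits need not be. Cell type cannot be checked in a peak list.

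A miRNA gene gives a long transcript from which a short hairpin is cut and then trimmed to short mature strands. Bases 2 to 8 of the mature strand, the seed, guide it to messenger RNAs that are then repressed. A snoRNA guides chemical modification of ribosomal RNA in the nucleolus, box C/D snoRNAs (Snord genes) guiding methylation and box H/ACA snoRNAs (Snora genes) pseudouridylation. Many genes of both kinds lie in introns of a longer host gene and are made from its transcript. TOP2B releases the twist that transcription builds up in DNA by cutting and resealing both strands.

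The miRNAs beside strong or neuron-related entries are shown by their mature strands, so that a reader can tell which regulators lie beside a summit. Capitals mark the seed, and the sequences are those of RefSeq, GRCm38.p6.
miR-135a-5p (Mir135a-1): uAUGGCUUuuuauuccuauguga
let-7a-5p (Mirlet7a-1): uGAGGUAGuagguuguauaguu
let-7f-5p (Mirlet7f-1): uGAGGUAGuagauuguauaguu
let-7d-5p (Mirlet7d): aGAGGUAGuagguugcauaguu
let-7b-5p (Mirlet7b): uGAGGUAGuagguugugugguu
let-7c-5p (Mirlet7c-2): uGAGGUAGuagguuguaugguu
miR-128-3p (Mir128-1 and Mir128-2): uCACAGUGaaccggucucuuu
miR-138-5p (Mir138-1): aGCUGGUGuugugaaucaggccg
miR-338-3p (Mir338): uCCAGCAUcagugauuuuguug
miR-377-3p (Mir377): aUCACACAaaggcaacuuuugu
miR-21a-5p (Mir21a): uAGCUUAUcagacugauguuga
miR-451a (Mir451a): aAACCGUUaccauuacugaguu
Mature sequences were found for 966 autosomal miRNA genes, 235 of which had an entry, with 377 different seeds. The let-7 seed GAGGUAG was shared by 11 genes, of which 5 had an entry, through 2 summits on different chromosomes. Both genes with the miR-128 seed CACAGUG had an entry, on chromosomes 1 and 9. In all, 22 seeds were common to 2 or more genes with an entry, and 12 of these had such genes on 2 or more chromosomes. The others belonged to genes on a single chromosome, most of them reached by 1 shared summit. How many seeds are shared among all 966 genes was not counted.

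Summits were denser near miRNA genes than in the rest of the autosomes. Within 5 kb of the 1136 autosomal miRNA genes there were 25.7 summits per Mb (239 in 9.28 Mb), against 14.7 per Mb in the remaining sequence, a ratio of 1.75 (1.53 to 1.99). Within 5 kb of the 1286 snoRNA genes there were 16.2 per Mb (165 in 10.2 Mb), against 14.7 per Mb, a ratio of 1.10 (0.936 to 1.28). The interval for miRNA genes lay above 1, and that for snoRNA genes included 1.

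Around miRNA genes, summit density stayed above that of the rest of the autosomes out to 50 kb. Inside the miRNA genes it was 32.9 summits per Mb, from 3 summits (6.79 to 96.2). It was 30.2 (23.0 to 39.0) in the 1 kb outside them and 22.9 (16.5 to 31.1) at 4 to 5 kb, with overlapping intervals. At 10 to 20 kb it was still 24.2 (21.9 to 26.6), and at 40 to 50 kb 22.1 (19.9 to 24.5). Set against sequence 10 to 50 kb away, with 22.1 summits per Mb, the ratio within 5 kb of miRNA genes was 1.17 (1.01 to 1.34). For snoRNA genes the nearest 1 kb held 23.6 per Mb (17.8 to 30.6), and the next 1 kb held 18.8 (13.3 to 25.9). Between 2 and 3 kb from a snoRNA gene the value was 8.87 (5.17 to 14.2), and from 5 kb outward it stayed between 13.7 and 15.1. A window of 1 kb in place of 5 kb gave snoRNA genes a ratio of 1.56 (1.18 to 2.01) to the rest of the autosomes.

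**Figure D1:**
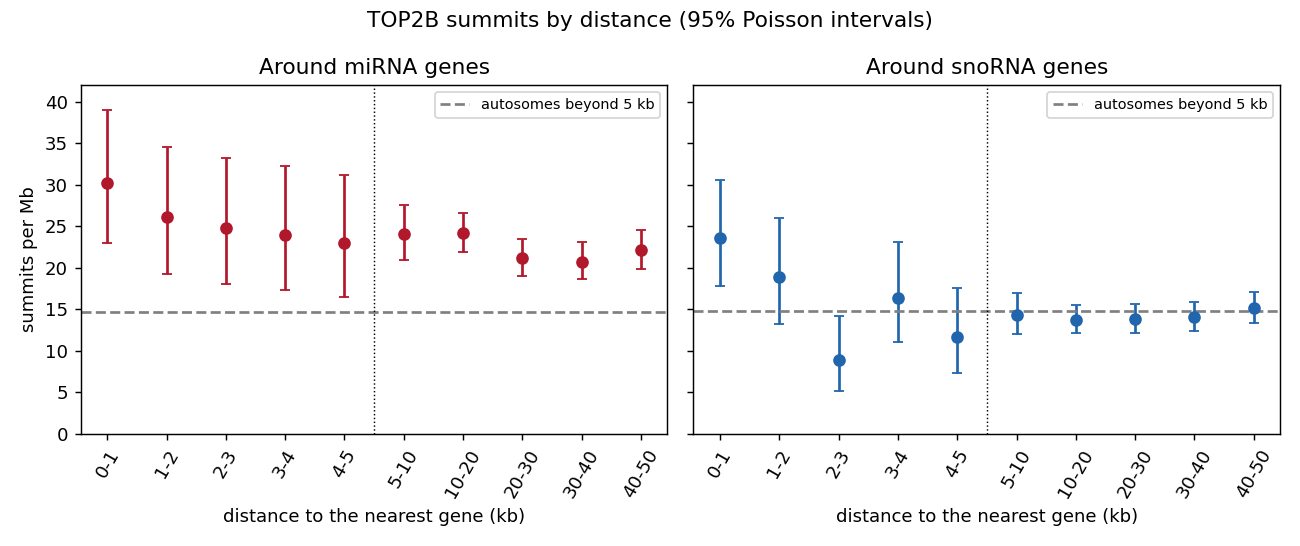
Summits per Mb (vertical axis) by distance to the nearest miRNA gene (left) or snoRNA gene (right), with 95% Poisson intervals, the dashed line giving autosomal sequence beyond 5 kb (14.7 per Mb in both) and the dotted line the 5 kb limit. All miRNA points lie above the dashed line out to 50 kb, while among snoRNA points the interval at 0 to 1 kb lies above it and that at 2 to 3 kb below it.

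Other kinds of sequence around the genes were set against like sequence. Around the ends of protein-coding genes (5 kb to either side), sequence near miRNA genes had 33.4 summits per Mb against 20.7 elsewhere at such ends, a ratio of 1.62 (1.33 to 1.94). Farther inside protein-coding or long noncoding RNA (lncRNA) genes the values were 21.3 and 15.9, a ratio of 1.34 (1.08 to 1.64). Outside such genes they were 20.4 and 12.03, a ratio of 1.70 (1.12 to 2.47). Near snoRNA genes the ratio was 0.625 (0.400 to 0.931) at protein-coding gene ends, with 13.0 against 20.8 summits per Mb. It was 1.14 (0.886 to 1.44) farther inside genes and 1.31 (1.03 to 1.65) outside them. This division was chosen after the data were seen.

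A summit was found for 260 of 1136 miRNA genes (22.9%, 20.5 to 25.4) and 176 of 1286 snoRNA genes (13.7%, 11.9 to 15.7). Over all listed autosomal genes the share was 33.6%, but that figure includes protein-coding genes (47.8%) and lncRNA genes (31.9%), whose length widens the reach. Genes of like short length had 11.3% (spliceosomal and other snRNA genes) and 10.5% (tRNA genes). Genes beside each other share summits, so genes whose windows touch were also counted together, giving 203 of 895 miRNA clusters (22.7%) and 156 of 951 snoRNA clusters (16.4%). The annotation holds only 128 snoRNA genes with a Snord or Snora symbol, and 17 of these had an entry (13.3%, 7.93 to 20.4). Of Snord genes 13 of 92 and of Snora genes 4 of 36 had one.

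Entries near small RNA genes had the median height of the list. The median fold over control, the authors' value for each peak, was 2.77 near miRNA genes (1.97 to 3.98), 2.77 near snoRNA genes (1.85 to 4.15) and 2.77 in all other autosomal entries. In reconstructed fragments the median summit held 15 in each of these groups. A control level within 0.01 of the most common in the list, 4.78, was found at 72.4% of entries near miRNA genes, 72.1% near snoRNA genes and 72.7% of other entries. A deposited q of 0.05 or less was reached by 59 of 239 entries near miRNA genes (24.7%, 19.4 to 30.7) and 45 of 165 near snoRNA genes (27.3%, 20.6 to 34.7). In all autosomal entries that share was 23.5%, inside both intervals. The remaining entries near either kind had a q above 0.05.

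**Figure D2:**
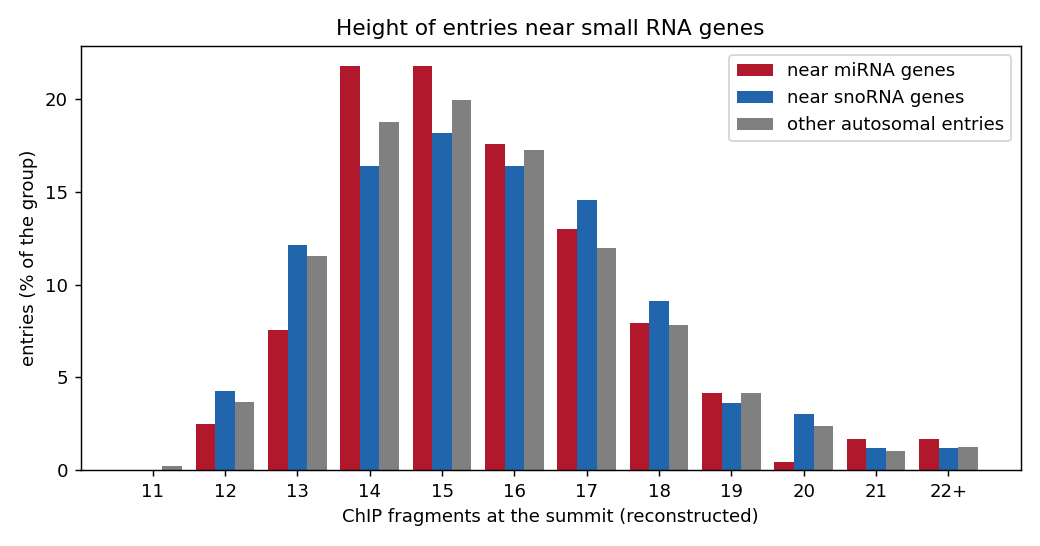
Share of entries (vertical axis, % of each group) by reconstructed ChIP fragments at the summit (horizontal axis) for the 239 entries near miRNA genes, the 165 near snoRNA genes and the other 34917 autosomal entries. Most entries of all 3 groups lie at 13 to 18 fragments, and the last bars pool 22 or more, up to 23 near miRNA and snoRNA genes. The reconstruction tried counts up to 1499 only, so the highest count in the other entries is not given.

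The rule keeps apart entries inside a host gene, which was assigned by position on either strand. Of entries near miRNA genes, 164 of 239 (68.6%, 62.3 to 74.4) had the summit inside a protein-coding or lncRNA gene that also holds the miRNA gene. A further 34 lay beside a hosted miRNA gene but outside its host, and 41 beside a miRNA gene with no host. Near snoRNA genes the counts were 80 of 165 (48.5%, 40.6 to 56.4) inside the host, 9 outside it and 76 with no host. Counted by a summit inside any protein-coding or lncRNA gene, the shares were 82.4% (77.0 to 87.0) near miRNA genes and 53.3% (45.4 to 61.1) near snoRNA genes. By that measure the share over all autosomal entries was 56.4%, inside the snoRNA interval and below the miRNA interval. The rule itself sets much of these shares, since 894 of 1136 miRNA genes and 777 of 1286 snoRNA genes lie in a host. Host sequence made up 6.40 of the 9.28 Mb within 5 kb of miRNA genes. Near snoRNA genes it made up 4.45 of 10.2 Mb. The shares are thus no measure of a preference for host genes. Hosted and other genes had entries about as often, at 22.6% of 894 hosted and 24.0% of 242 other miRNA genes. For snoRNA genes the shares were 13.4% of 777 hosted and 14.1% of 509 others.

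Inside host genes, sequence within 5 kb of the miRNA gene had 25.6 summits per Mb against 18.3 in the rest of the same 751 hosts, a ratio of 1.40 (1.18 to 1.65). Around hosted snoRNA genes the values were 18.0 and 12.8 in 462 hosts, a ratio of 1.40 (1.10 to 1.76). Within hosts of like length the miRNA ratio was lower than the pooled one in each class. In hosts under 20 kb the miRNA ratio was 1.05 (0.650 to 1.75), with 32.6 and 31.0 summits per Mb. In hosts of 20 to 100 kb it was 1.12 (0.873 to 1.42), and in hosts of 100 kb or more it was 0.801 (0.510 to 1.20), with 13.1 and 16.3 per Mb. The snoRNA ratios were 0.482 (0.199 to 1.21), 1.22 (0.799 to 1.81) and 1.35 (0.931 to 1.91) in the same 3 length classes. All 6 intervals included 1.

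**Figure D3:**
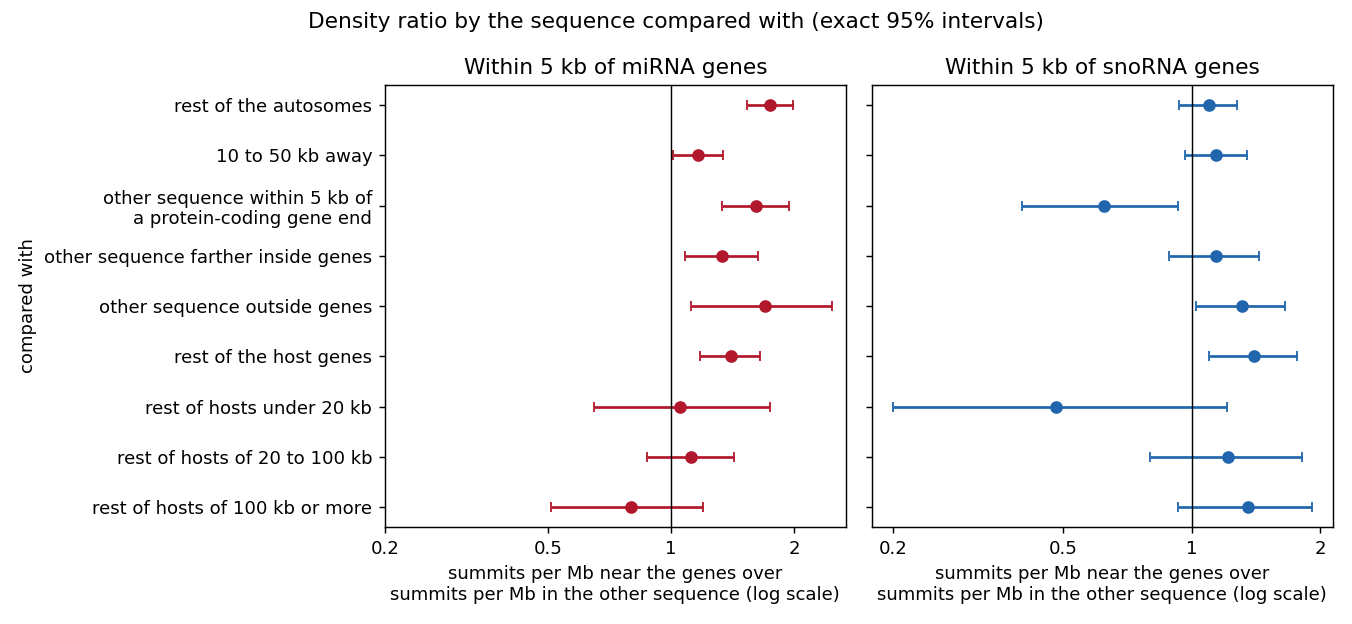
Density ratio on a log scale (horizontal axis) between sequence within 5 kb of miRNA genes (left) or snoRNA genes (right) and the sequence named on the vertical axis, with exact 95% intervals. The miRNA ratio of 1.75 against the rest of the autosomes is 1.17 against sequence 10 to 50 kb away, and within hosts of like length all intervals cross 1.

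The entry of highest fold near a miRNA gene lay beside Mir5625, at a summit on chromosome 5 at 30647627. Its fold was 3.98 with a q of 0.000497, 309 bp upstream of Mir5625 and 312 bp before the start of Slc35f6, a solute carrier family gene. The next 3 had a fold of 3.80 and a q of 0.00162. They lay beside Mir1945, beside Mir7062 inside Adam8, a membrane metalloprotease gene, and beside Mir135a-1. A fold of 3.73 (q 0.00144) was found beside Mir377 inside the lncRNA Mirg. Mir21a had an entry of 3.63 (q 0.00437) on chromosome 11 at 86588236, 4078 bp upstream of the miRNA gene and inside its host Vmp1, which encodes a membrane protein of autophagy. Mir6905, inside the Mediator subunit gene Med23, followed with 3.52 (q 0.00174).

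A further 7 entries tied at 3.46, each with a q of 0.0102. These were beside Mir144, beside Mir6944 in Dbn1, which encodes the spine actin-binding protein drebrin, beside Mir1224 in Vwa5b2, and beside Mir3090, Mir1905, Mir7668 and Mir202. The entry beside Mir1905 lay 4591 bp from it and 236 bp before the start of Mex3a, an RNA-binding protein gene. Mex3a is the host of Mir1905 by position only. Mir1905 lies on the minus strand and Mex3a on the plus strand, so the Mex3a transcript does not carry this miRNA. Its summit also lay 170 bp after the start of the lncRNA Gm38618, the nearest listed start. Among members covered by the promoter table, this entry was the only one whose summit fell in a RefSeq promoter window. Such a window is the 250 bases before and 50 after a gene start. The share of all autosomal entries in such windows is not given here, so this count cannot be called low or high. The 250 bases before the Mex3a start, chr3:88531696-88531945 on the plus strand of GRCm38.p6, are shown with each CG in capitals, the summit standing at base 15.
Mex3a: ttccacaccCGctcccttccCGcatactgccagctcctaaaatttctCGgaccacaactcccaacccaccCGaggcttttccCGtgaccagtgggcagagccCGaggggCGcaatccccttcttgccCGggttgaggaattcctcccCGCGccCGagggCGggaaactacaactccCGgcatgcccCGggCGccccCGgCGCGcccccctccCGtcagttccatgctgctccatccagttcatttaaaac
It held 19 CG dinucleotides (64.0% G and C), and 19.7% of the 32851 promoter windows held as many or more over the same 250 bases.

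Summits near gene starts were more frequent among entries near miRNA genes than in the list. Of 235 such entries, 25 (10.6%, 7.0 to 15.3) lay within 1 kb of a listed start, against 3.43% of all autosomal entries. The share was 5.59% (2.59 to 10.3) for 9 of 161 entries near snoRNA genes, an interval that includes the 3.43%. Entries on the chromosome without listed starts, chromosome 18, are left out of these counts. The share was 19.4% of 72 entries near miRNA genes that were not in a host and 6.75% of 163 in a host. With chromosome 18 counted, 75 were not in a host. Of these, 34 lay beside a hosted gene, and so within 5 kb of a host end by definition. Members also lie within 5 kb of a gene by the rule, while the list holds entries far from any gene. These shares therefore compare unlike sequence. Among the starts were those of miRNA host transcripts, 486 bp for Mirc35hg, which holds Mir183 (fold 2.49), and 928 bp for Mir1a-1hg (fold 2.59). Of 214 summits outside the hairpin with a listed strand, 101 lay upstream of the nearest miRNA gene and 113 downstream (47.2% upstream, 40.4 to 54.1).

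**Figure D4:**
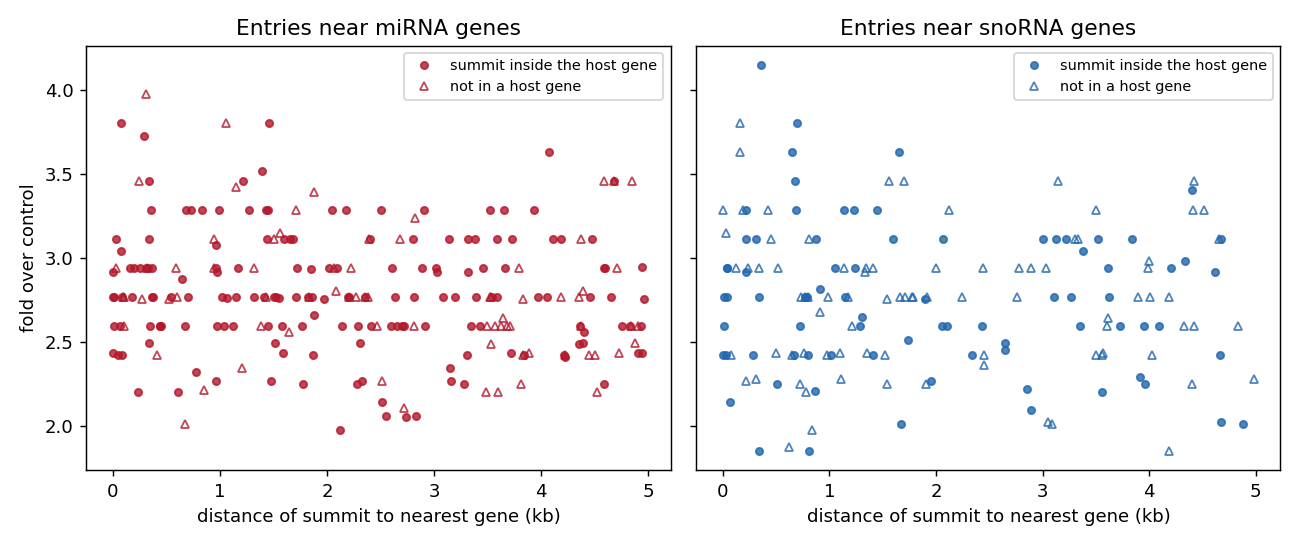
Fold over control (vertical axis) against the distance from summit to the nearest miRNA gene (left, 239 entries) or snoRNA gene (right, 165 entries), with filled circles for summits inside a host gene and open triangles for the others. Folds span 1.97 to 3.98 near miRNA genes and 1.85 to 4.15 near snoRNA genes at all distances, in horizontal rows because fragment counts are whole numbers.

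The summit itself lay inside the miRNA hairpin at 3 entries, and the interval of 17 entries overlapped a miRNA gene. These hairpins are shown 5′ to 3′ with the base under the summit in capitals.
Mir6964: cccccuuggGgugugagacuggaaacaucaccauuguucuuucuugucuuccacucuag
Mir7665: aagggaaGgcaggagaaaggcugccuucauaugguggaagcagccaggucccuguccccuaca
Mir1967: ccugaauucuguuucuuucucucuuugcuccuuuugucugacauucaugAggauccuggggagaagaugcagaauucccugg
Mir6964 lies in C2cd2 at chr16:97877233-97877291 on the minus strand, and its entry had a fold of 2.92 (q 0.0542). Mir7665 lies in Mapkbp1 at chr2:120017517-120017579 on the plus strand (fold 2.77, q 0.110). Mir1967 lies in Urb2 at chr8:124022641-124022722 on the plus strand (fold 2.43, q 0.212). None of the 3 reached a q of 0.05. The nearest summits outside a hairpin were 7 bp from Mir7025, in the growth factor receptor gene Pdgfra, with a fold of 2.59, and 9 bp from Mir135a-1. Hairpins of genes with an entry had a median of 52.7% G and C (quartiles 46.2 and 59.1, 225 of 260 matched). Hairpins of genes without one had 52.1% (45.5 and 58.1, 694 of 876 matched).

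Brain-enriched miRNA genes had an entry at 12 of 42 (28.6%, 15.7 to 44.6), through 10 summits with a median fold of 2.85. The 22.9% of all miRNA genes lay inside that interval. Mir135a-1, on chromosome 9 from 106154124 to 106154213, had 2 entries, of fold 3.80 at 1455 bp downstream and 2.77 at 9 bp downstream. It lies in the glycerate kinase gene Glyctk and in the lncRNA D030055H07Rik. Mir128-1, from a miRNA known to limit the excitability of neurons, had an entry of 3.11 (q 0.0390) inside its host R3hdm1, and Mir128-2 one of 2.25 (q 0.405) inside Arpp21. Mir138-1, from a miRNA known to restrain dendritic spine size, had 3.11 (q 0.0390) at 1509 bp downstream. Mir124a-3, a copy of the most abundant neuronal miRNA, had 2.94 (q 0.0675) at 318 bp. Mir338, known for promoting oligodendrocyte maturation, had 2.94 (q 0.0675) inside Aatk, a kinase gene.

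Mir29a and Mir29b-1 shared an entry of 2.59, Mir219a-2 and Mir219b another of 2.59, and Mir181c and Mir181d one of 2.42. The q of these 3 was 0.177, 0.177 and 0.272. Of the 10 brain-enriched summits, 3 had a q of 0.05 or less. Among the brain-enriched genes without an entry were the 7 of Mir9, Mir132, Mir212, Mir134 and Mir137. They were picked out for known roles in neurogenesis, plasticity and dendrite growth. The share of all miRNA genes with an entry was 22.9%, and 7 genes are too few to set this group apart from it.

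The let-7 genes, which promote differentiation, had entries at 5 of 10 (50.0%, 18.7 to 81.3) through 2 summits, and the 22.9% of all miRNA genes lay inside that interval. A summit of fold 3.43 (q 0.0102) on chromosome 13 at 48539419 lay 1147 bp upstream of Mirlet7a-1, with Mirlet7f-1 and Mirlet7d also in reach. The other, of 2.94 (q 0.0675) on chromosome 15, was shared by Mirlet7c-2 and Mirlet7b and lay 960 bp before the start of their host lncRNA Lncppara. The miR-17 to miR-92 clusters, which promote proliferation, had none at 9 genes, an interval reaching 33.6% and so including the 22.9%.

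Genes of miRNAs known from other tissues had entries at 5 of 31 (16.1%, 5.45 to 33.7), an interval that again included the 22.9% of all miRNA genes. Mir144 and Mir451a of red blood cells shared 2 entries, of fold 3.46 and 2.94, at 240 and 940 bp upstream of Mir144. Mir203, a skin miRNA, had 2 entries, of 2.94 and 2.59. Mir150, of lymphocytes, had 2.76, and Mir1a-1, of muscle, 2.59. The interval of this list overlaps that of the brain-enriched list.

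The most entries at a single cluster were 4, at Mir6998 in Fubp3, which encodes a single-strand DNA-binding protein. They had folds of 3.29, 3.11, 2.76 and 2.59 within a host of 44.9 kb. Mir8107 in Nbeal2, a gene known for platelet granule formation, had 3, each of 2.77. A further 31 miRNA clusters had 2. Among these was the cluster of Mir126a and Mir126b in Egfl7, endothelial genes, with folds of 2.77 and 2.59.

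The imprinted Dlk1 to Dio3 region of chromosome 12 holds 61 miRNA genes, and 23 (37.7%) had an entry, against 22.9% of all miRNA genes. All 23 had it through 2 summits, in the 0.138 Mb of sequence within 5 kb of the 61 genes. The whole span of these genes, with 5 kb on either side, held 16 summits, or 21.5 per Mb. All the genes but Mir1247 start within about 203 kb of the first one, and that stretch held only those 2 summits. The other summits lay at 211 to 710 kb, in sequence without a listed miRNA gene, before Mir1247 at 734 kb. The 21.5 per Mb thus mostly describes sequence away from these genes. The entry beside Mir377 in Mirg (109740118 to 109740578, fold 3.73, 22 fragments) had 9 miRNA genes in reach. A second of 2.59 (q 0.177), 104 bp upstream of Mir758, had 14 genes in reach, among them Mir379, Mir329 and Mir494. The 19 snoRNA genes of that region had no summit. The 72 miRNA genes of an array inside Sfmbt2 on chromosome 2 had 1 summit (fold 2.42, q 0.272) in 51.6 kb, or 16.2 per Mb with 5 kb on either side. Against 22.9% of all miRNA genes with an entry, 14 genes of this array (19.4%) had that summit in reach. How well reads could be placed among the repeated copies of this and the following array was not tested, so a low count there does not show a lack of complexes.

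The imprinted snoRNA array between Ube3a and Snrpn on chromosome 7, whose human counterpart is lost on the paternal copy in Prader-Willi syndrome, holds 206 listed snoRNA genes. Within 5 kb of any of them lay 1 summit, of fold 2.59 and q 0.177 in the host lncRNA Snhg14. Against 13.7% of all snoRNA genes with an entry, 6 of these 206 genes (2.91%) had that summit in reach. Over the 634 kb from the first to the last of these genes and 5 kb on either side there were 2 summits, or 3.11 per Mb, against 14.7 per Mb in sequence away from snoRNA genes. Of its members with Snord116 or Snord64 symbols, none of 18 had an entry. With the array left out, 170 of 1080 snoRNA genes had an entry (15.7%, 13.6 to 18.1), and the density ratio was 1.15 (0.977 to 1.34).

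**Figure D5:**
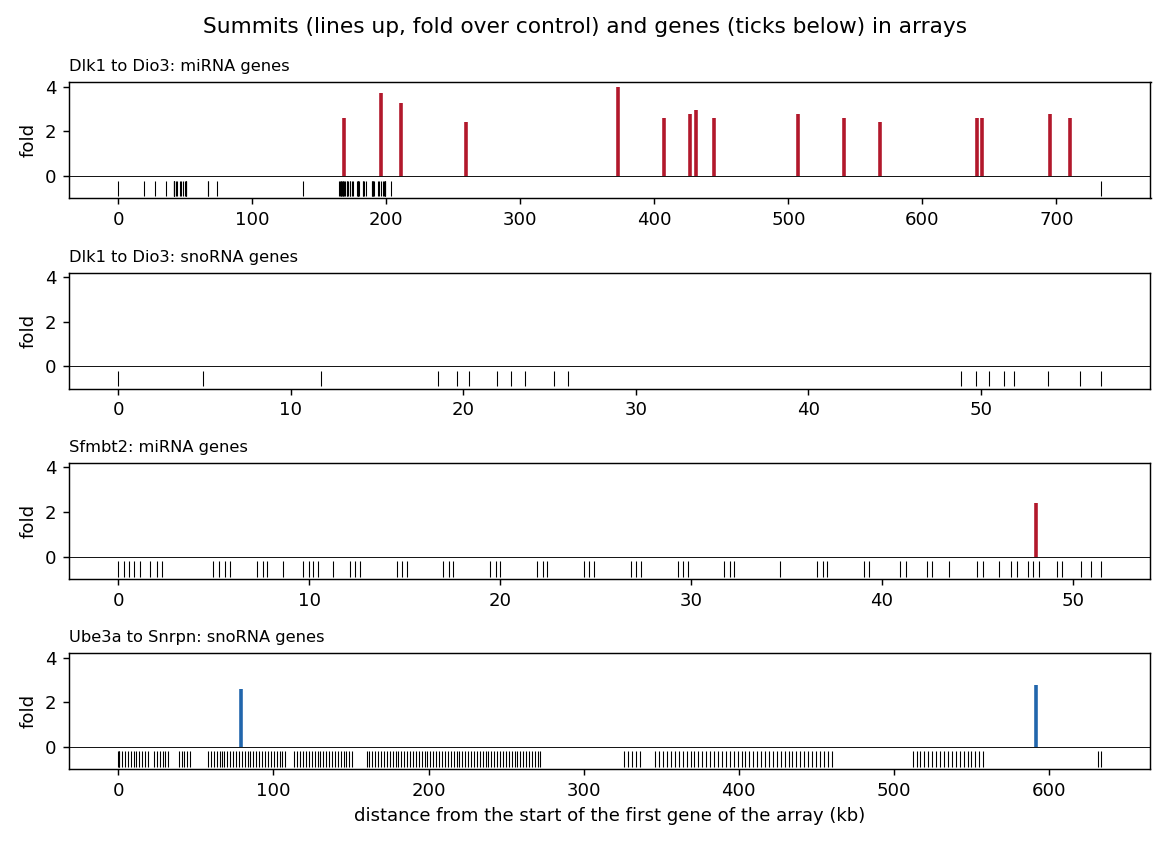
Summits (coloured lines, height is fold over control) and small RNA genes (black ticks) in 4 arrays, by distance in kb from the start of the first gene. The Dlk1 to Dio3 span holds 16 summits, 2 of them within 5 kb of a miRNA gene, while the snoRNA genes of that region have none.

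Near snoRNA genes, the highest fold was 4.15 (q 0.000131), 360 bp from Gm25275 inside the lncRNA Gm39185 on chromosome 8, with the summit at 66918290. Folds of 3.80 were found beside LOC115486275 and, inside Alg9, a glycosylation enzyme gene, beside LOC115487294. Folds of 3.63 were found beside LOC115487895, Gm26005 and Gm22428, and 5 entries followed at 3.46. These lay beside Gm25497 in Immp2l, Gm22899, LOC115490062, LOC115490074 and LOC115485682. The last 2 belong to the ribosomal protein genes Rps20 and Rpsa. All 11 are beside genes with provisional symbols or numbers, apart from Snora62, which also lay in reach of the Rpsa entry.

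Summits lay inside a snoRNA gene at Gm26078 (fold 3.29, q 0.0208) and at Gm22772 in Nsrp1 (2.42, q 0.272). The nearest outside were 9 bp from Snord2 in the translation factor gene Eif4a2, with a fold of 2.59, and 11 bp from LOC115488830 in Ddx39b, an RNA helicase gene, with 2.77. Another lay 26 bp from Gm22784 in Nbea and had a fold of 2.42. The most entries at a single snoRNA cluster were 3, of fold 3.11, 2.20 and 1.85, around Gm26162 on chromosome 4. A further 7 clusters had 2, among them Snord35b to Snord32a and Snord49b to Snord65.

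Of 57 snoRNA genes in ribosomal protein genes, 11 had an entry (19.3%, 10.0 to 31.9), through 5 summits. That of Rpsa, of fold 3.46 (q 0.0102), lay 549 bp before its start, and 1 of 2.77 (q 0.110) lay 631 bp before the start of Rpl13a, with Snord32a, Snord33, Snord34 and Snord35a in reach. Snora3 in Rpl27a had 2.42 (q 0.272), 139 bp after the host's start. Of 26 snoRNA genes in Gas5 and Snhg hosts, 1 had an entry (3.85%, 0.0973 to 19.6), Snord87, with 2.77. Snord118, the U8 snoRNA needed to process the large ribosomal RNAs, had 2.94 (q 0.0675) at 1410 bp and no host. Both lists have intervals that include the 13.7% of all snoRNA genes.

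The 6 entries within reach of both kinds had folds of 2.42 to 2.94. They lay in Samd12, Ddx39b and Atp5b, beside Rpl13a, beside Snhg4 and beside Mir150. Just inside the limit of 5 kb, a summit 4961 bp from Mir3087 had a fold of 2.76, and one 4983 bp from Gm25487 had 2.28. Just outside it, a summit 5011 bp from Mir7676-1 had 2.77, and one 5067 bp from Gm26272 had 2.42.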

How the data were processed

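Per the labels' protocols, lysates were sonicated and TOP2B bound to DNA was recovered by native ChIP, after which an exonuclease removed the 5′ strand and the 3′ strand was amplified linearly. The submitters' processing notes name FastQC, Trimmomatic, BWA, SAMtools and MACS2 and the builds mm10 and GRCm38.p6, with no version or setting, and the sources used here do not say which libraries were pooled. The authors deposited 1 peak list without a header. The deposited fold is a ratio, ChIP pileup plus 1 divided by the local control level plus 1. The −log10 p and −log10 q were deposited for every peak. The deposited display score was not used. Deposited positions in bp were made 1-based. Replicates and ChIP against input cannot be compared.

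Pileup and control level were reconstructed from fold and p by the MACS2 formulas, within 0.002 of −log10 p for 35312 of 35315 autosomal entries. Genes came from the RefSeq table of GRCm38.p6, which has no exons. Windows of 5 kb were merged, and densities were taken over 2394 Mb from first to last summit on the 19 autosomes. Ratios of counts and shares carry exact 95% intervals (Clopper-Pearson, conditional for ratios), and no p-values were computed. A host wholly holds the small RNA gene, on either strand, so a host need not be the gene whose transcript carries the small RNA. The code was tested on simulated summits. Python 3.11.15, numpy 2.4.6, scipy 1.17.1 and pandas 2.3.3 were used.

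The members and lists were chosen with earlier results of these data known. Named are the 10 highest folds of each kind with their ties, the summits inside or nearest a gene, the clusters with most entries, and list members. The wildcards of the brain-enriched list also took 4 unrelated genes, which were left out. Entries near gene starts, and the genes given as examples there, were named after their values were seen. So were Snord118, the entries near both kinds and the group of Mir9, Mir132, Mir212, Mir134 and Mir137 genes.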

Additional observations from a re-analysis of the deposited data

How the results depend on the processing

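No paired analysis was possible because the single list is pooled over libraries and its columns carry no replicate number, and leaving out a replicate was not possible for the same reason. The miRNA ratio of 1.75 stayed above 1 in all 13 other settings tried, and was 2.06 with a window of 1 kb. Chosen after seeing the data, it was 1.34 farther inside genes, 1.17 against sequence 10 to 50 kb away and 1.43 for genes up to Mir1000 with let-7. The ratio within miRNA hosts was 1.66 with q of 0.05 or less, and in hosts of like length, chosen after seeing the data, 1.05, 1.12 and, reversed, 0.801. The snoRNA ratio was 1.56 with a window of 1 kb, 0.625 at protein-coding gene ends, 1.31 outside genes and 0.889 for Snord and Snora symbols. Within snoRNA hosts it was 2.20 with q of 0.05 or less and, reversed, 0.482 in hosts under 20 kb. Windows of 1 and 10 kb gave 6.16% and 36.0% of miRNA genes with an entry, and 4.43% and 21.9% of snoRNA genes. Folds at or above the median left 12.9% and 7.54%, and q of 0.05 or less 6.43% and 3.73%. Leaving out the Ube3a to Snrpn array gave 15.7% of snoRNA genes. For hosts, 82.8% of miRNA entries lay beside a hosted gene and 82.4% inside any protein-coding or lncRNA gene. No member had a high control level, and the cause of these shifts was not tested. Depth is unknown, so an unlisted site is not shown to lack complexes, and the small gene lists have wide intervals.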
